A study of Mus musculus with 6 samples.

Results

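The Slc25 genes encode the mitochondrial carrier family, the proteins that exchange metabolites, nucleotides and cofactors across the inner mitochondrial membrane. Their RNA was measured in pancreatic islets, the hormone-secreting clusters of the pancreas, of young mice whose mothers had received bisphenol-A (BPA, a plastics monomer with estrogen-like activity). Members were all probe sets annotated with a single gene whose symbol begins with Slc25a and a number. This gave 93 probe sets of 44 genes, of 18193 genes with such a probe set on the array, and each gene is described by its brightest probe set. Carriers of the same superfamily with other symbols, such as the uncoupling proteins (Ucp) and Mtch proteins, are therefore not members.

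The 6 arrays formed 3 groups of 2. All carried islet RNA of wild-type male OF-1 offspring taken at postnatal day 30, and the groups differed in what the dams were given on gestation days 9 to 16. Vehicle replicate 1 pooled 5 mice and replicate 2 was a single mouse; BPA10 (10 µg/kg/day) replicate 1 was a single mouse and replicate 2 pooled 2; both BPA100 arrays (100 µg/kg/day) were single mice. Values are given below as replicate 1, then replicate 2, and the litters are not given in the labels, so p-values measure the spread between these arrays only. The unit is the MAS5 signal, an intensity scaled to the same trimmed mean on every array. Signals of different probe sets cannot be set against each other, so levels are compared only within a gene.

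Mitochondrial carriers are made in the cytosol, enter through the outer membrane translocase and are inserted into the inner membrane with the help of small chaperones of the space between the membranes. In islet beta cells they stand between glucose breakdown and insulin release. The ADP/ATP carriers deliver the ATP that closes potassium channels, the aspartate/glutamate carriers bring reducing equivalents of cytosolic NADH into mitochondria, and the citrate and oxoglutarate carriers let intermediates leave for the cytosol. The carnitine/acylcarnitine carrier brings in fatty acids for oxidation.

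The 250 bases before the annotated start are shown for 4 carriers whose BPA10 differences are described below, Slc25a40 and Slc25a45 (higher on both BPA10 arrays than on both vehicle arrays) and Slc25a29 and Slc25a38 (lower on both). The sequences are RefSeq's, of mouse assembly GRCm38.p6, on the gene's own strand from 5′ to 3′. Capitals mark matches, on either strand, to a GC box (GGGCGG), to a CCAAT box, which is searched under those letters, or to the nuclear receptor half-site (AGGTCA).
Slc25a40, chr5:8422588-8422837, plus strand: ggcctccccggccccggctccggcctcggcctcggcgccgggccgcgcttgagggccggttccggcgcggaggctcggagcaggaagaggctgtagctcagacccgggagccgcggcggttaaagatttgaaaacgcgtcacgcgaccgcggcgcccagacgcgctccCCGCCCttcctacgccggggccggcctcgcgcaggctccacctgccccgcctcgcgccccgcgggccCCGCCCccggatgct
Slc25a45, chr19:5877572-5877821, plus strand: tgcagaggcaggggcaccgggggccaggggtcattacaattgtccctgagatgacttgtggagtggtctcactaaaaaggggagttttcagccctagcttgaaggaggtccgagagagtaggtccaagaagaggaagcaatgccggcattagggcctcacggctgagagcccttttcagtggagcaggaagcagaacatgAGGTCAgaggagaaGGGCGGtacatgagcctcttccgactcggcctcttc
Slc25a29, chr12:108835877-108836126, minus strand: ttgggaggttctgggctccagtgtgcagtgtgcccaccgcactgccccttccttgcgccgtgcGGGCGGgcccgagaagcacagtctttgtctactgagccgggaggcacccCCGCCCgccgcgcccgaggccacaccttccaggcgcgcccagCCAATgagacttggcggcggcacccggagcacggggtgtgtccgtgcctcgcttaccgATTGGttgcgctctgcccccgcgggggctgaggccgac
Slc25a38, chr9:120110132-120110381, plus strand: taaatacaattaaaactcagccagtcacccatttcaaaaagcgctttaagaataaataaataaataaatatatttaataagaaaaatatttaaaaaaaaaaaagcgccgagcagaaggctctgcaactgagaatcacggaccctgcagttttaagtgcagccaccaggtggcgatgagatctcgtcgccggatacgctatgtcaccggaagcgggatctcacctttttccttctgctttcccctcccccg
In Slc25a45 the half-site lay 50 to 45 bases before the start and a GC box 36 to 31 bases before it. The Slc25a40 stretch held 2 GC boxes and was 78% G and C, the Slc25a29 stretch held 2 GC boxes and 2 CCAAT boxes, and the Slc25a38 stretch, 41.6% G and C, matched none of these motifs. RefSeq entries were found for 34 member genes (43 promoters), against 32851 promoters of the same length in all. The GC box was found in 74.4% of the member promoters and in 32.7% of all promoters, the CCAAT box in 46.5% and 33.8%, and the half-site in 9.3% and 14.0%. The full estrogen response element (GGTCA and TGACC with any 3 bases between) was in no member promoter and in 0.0639% of all, the estrogen-related receptor element (TCAAGGTCA) in none and 0.387%, and the NRF1 motif (GCGCA and GCGC with any base between) in 4.65% and 3.74%. The GC box and CCAAT box letters do not contain each other, whereas the estrogen-related receptor element contains the half-site. These letter matches describe the windows and say nothing of factors bound there.

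Of the 44 genes, 38 had a brightest probe set above the low-signal limit (a mean log2 value of 4.60) and were tested. The 6 others were Slc25a2 (an ornithine carrier), Slc25a31 (the germ-cell ADP/ATP carrier), Slc25a34, Slc25a41 (an ATP-Mg/phosphate carrier), Slc25a48 and Slc25a54, whose signals lay between 1 and 36. Slc25a34, with a mean log2 value of 4.56, was just below the limit, and Slc25a18, with 4.93, just above it. The tested members spanned signals of 12 to 5643.

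Over all arrays the median signal was 33 to 40 and the highest 11218 to 15158, and Pearson's r over the tested probe sets was 0.945 to 0.975 between arrays. The tissue label was checked with 11 islet hormone and identity genes, which had signals of 770 to 13666 and were at 0 on no array. All 18 acinar markers found (digestive enzymes and their regulators, from the exocrine tissue around islets) were also above 0 on every array. Their summed signal was 114649 and 65801 on the vehicle arrays, 159388 and 145674 on the BPA10 arrays, and 150222 and 90048 on the BPA100 arrays. In bulk RNA, fewer cells of a type and less RNA per cell cannot be told apart.

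No tested member passed the threshold in any comparison (limma, adjusted p under 0.05 over the 27022 tested probe sets). Nor did any other probe set, so the percentage called at that threshold was 0 for BPA10 against vehicle, 0 for BPA100 against vehicle, 0 for BPA100 against BPA10 and 0 for the F test over the 3 groups. The smallest adjusted p of a member was 0.608, 1 and 0.964 in these pairwise comparisons and 0.923 in the F test. With 2 arrays a group, an exact permutation test of one gene cannot go below 0.333. The differences below are therefore measurements on these arrays, and unadjusted p-values are used only to count and order members.

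**Figure D1:**
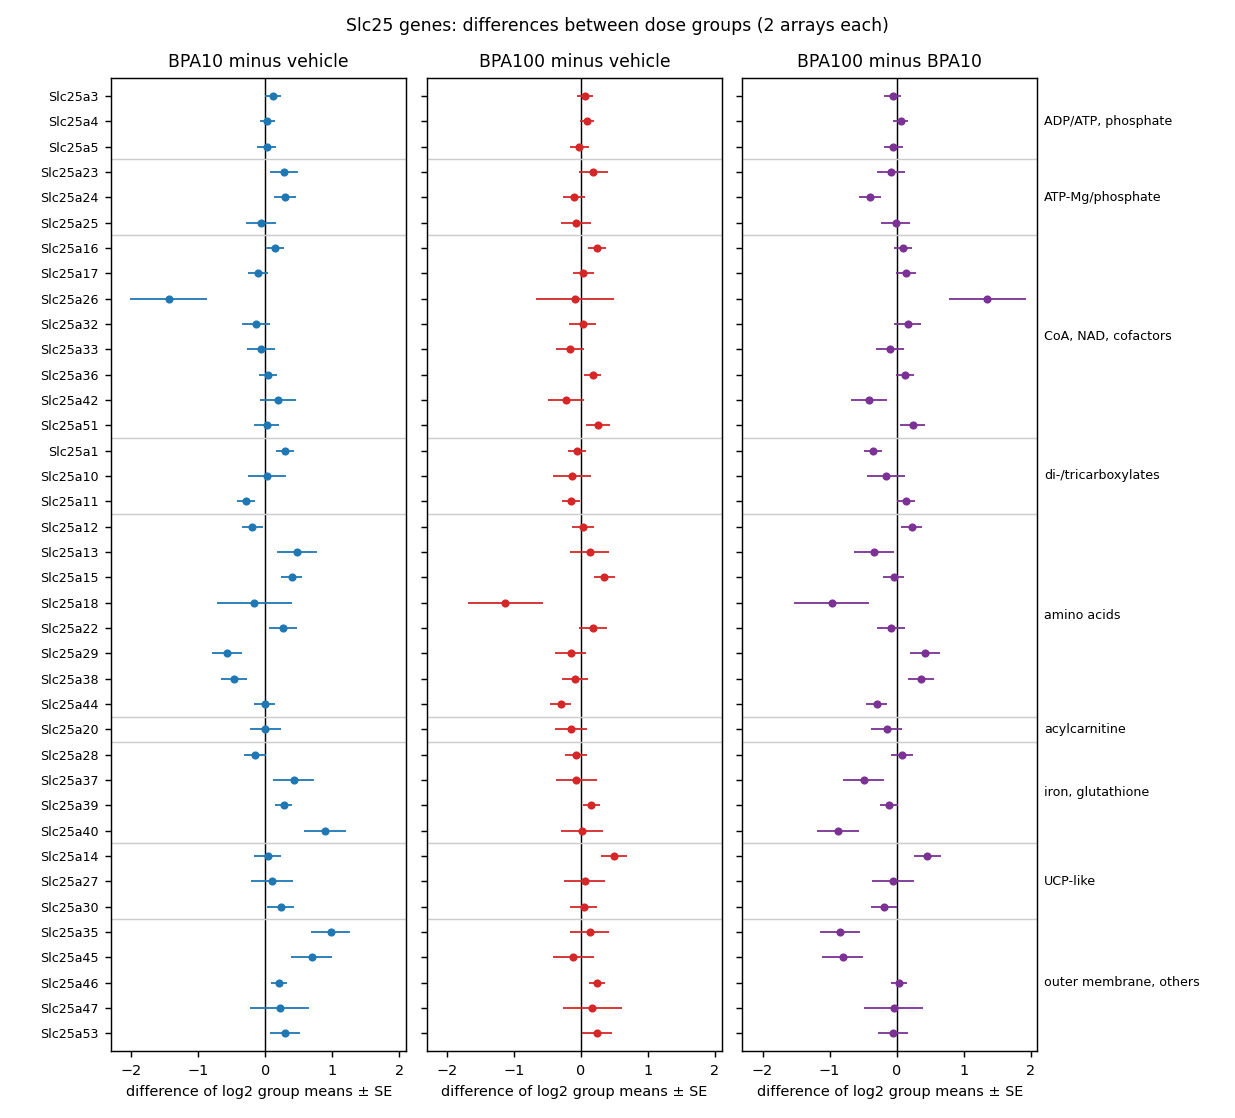
Difference of log2(signal + 1) group means for the 38 tested carriers, ordered by role, with the standard error of the limma fit as bars, for the 3 pairwise comparisons of 2 arrays each. The widest differences from vehicle are those of Slc25a26 at BPA10 (-1.44) and Slc25a18 at BPA100 (-1.13), both dim probe sets, and most other carriers lie within 0.5 of 0.

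In BPA10 against vehicle, 25 of the 38 carriers had a higher mean and 13 a lower one, with a median difference of 0.07 on the log2 scale, beside 0.0008 over all tested probe sets and 0.02 over the brightest probe set of every gene. The median over members was 0.20 (BPA10 replicate 1) and 0.06 (BPA10 replicate 2) above the vehicle mean, with 0.04 and -0.04 for the vehicle replicates themselves. The median difference was 0.20 without BPA10 replicate 2, 0.12 without vehicle replicate 1 and 0.06 without BPA10 replicate 1. Unadjusted p was under 0.05 for 6 members (15.8%), 3 higher (Slc25a35, Slc25a40, Slc25a15) and 3 lower (Slc25a29, Slc25a26, Slc25a38), beside 7.08% of all tested probe sets (3.12% higher, 3.96% lower) and 6.01% of the brightest probe sets of all genes. With the mean acinar level of each array as a covariate, 2 members had an unadjusted p under 0.05. Over all tested probe sets the count was then 973, against 1914 without the covariate. With no intensity trend in the fit, the counts were 4 members and 1857 of all tested probe sets. The groups did not overlap for 17 members (13 higher, 4 lower), or 44.7%, beside 36% of all tested probe sets.

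Slc25a35, an inner membrane carrier with a poorly known substrate, had the smallest p of the family. Its signal (NCBI gene 71998) was 92 and 80 on the vehicle arrays, 203 and 142 on the BPA10 arrays and 123 and 72 on the BPA100 arrays. Both BPA10 arrays were above all 4 others, and the BPA100 arrays lay on either side of the vehicle pair. The BPA10 difference was 0.98 ± 0.29 (SE, log2 scale), or 1.97-fold (limma, adjusted p = 0.608).

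Slc25a40, a paralog of the glutathione carrier Slc25a39, showed the same layout. It measured 145 and 135 on the vehicle arrays, 285 and 237 on the BPA10 arrays and 207 and 97 on the BPA100 arrays (NCBI gene 319653). The BPA10 arrays were again the 2 highest and the BPA100 arrays were spread around the vehicle values. The difference was 0.89 ± 0.32, or 1.85-fold (limma, adjusted p = 0.668). Slc25a39 itself, which carries glutathione into mitochondria, read 2306 and 2033 on the vehicle arrays, 2496 and 2744 on the BPA10 arrays and 2567 and 2269 on the BPA100 arrays. Its 4 tested probe sets gave BPA10 differences of 0.20 to 0.27.

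Slc25a45, a carrier placed among the less characterised ones, measured 67 and 57 on the vehicle arrays, 117 and 86 on the BPA10 arrays and 74 and 44 on the BPA100 arrays. The BPA10 difference was 0.69 ± 0.30 (limma, adjusted p = 0.704). In Slc25a35, Slc25a40 and Slc25a45 the 6 arrays ran in one order, with BPA10 replicate 1 highest, then BPA10 replicate 2, BPA100 replicate 1, vehicle replicate 1, vehicle replicate 2 and BPA100 replicate 2. The summed acinar signal had another order from highest to lowest. It ran BPA10 replicate 1, BPA100 replicate 1, BPA10 replicate 2, vehicle replicate 1, BPA100 replicate 2 and vehicle replicate 2. The mean acinar log2 level, relative to vehicle, was 1.17 on BPA10 replicate 1, 0.966 on BPA10 replicate 2 and 0.965 on BPA100 replicate 1. It was 0.47 on vehicle replicate 1, 0.08 on BPA100 replicate 2 and -0.47 on vehicle replicate 2. The order of these means differed from the carriers' order only in the places of vehicle replicate 2 and BPA100 replicate 2. Part of this likeness is set by choice, since these carriers were named for high BPA10 values and the mean acinar level was also highest there. Slc25a1 and Slc25a15, also named and higher at BPA10, ran in other orders. Slc25a1 read 439 on vehicle replicate 1 and 434 on BPA100 replicate 1. Slc25a15 read 178 on vehicle replicate 1 and 212 on BPA100 replicate 2. A link between acinar level and carrier order was not tested. With the mean acinar level of each array as a covariate, the BPA10 differences were 0.38 for Slc25a35, 0.20 for Slc25a40 and 0.10 for Slc25a45, with adjusted p = 1 for each. The covariate moved other named carriers both ways, as given with them below.

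**Figure D2:**
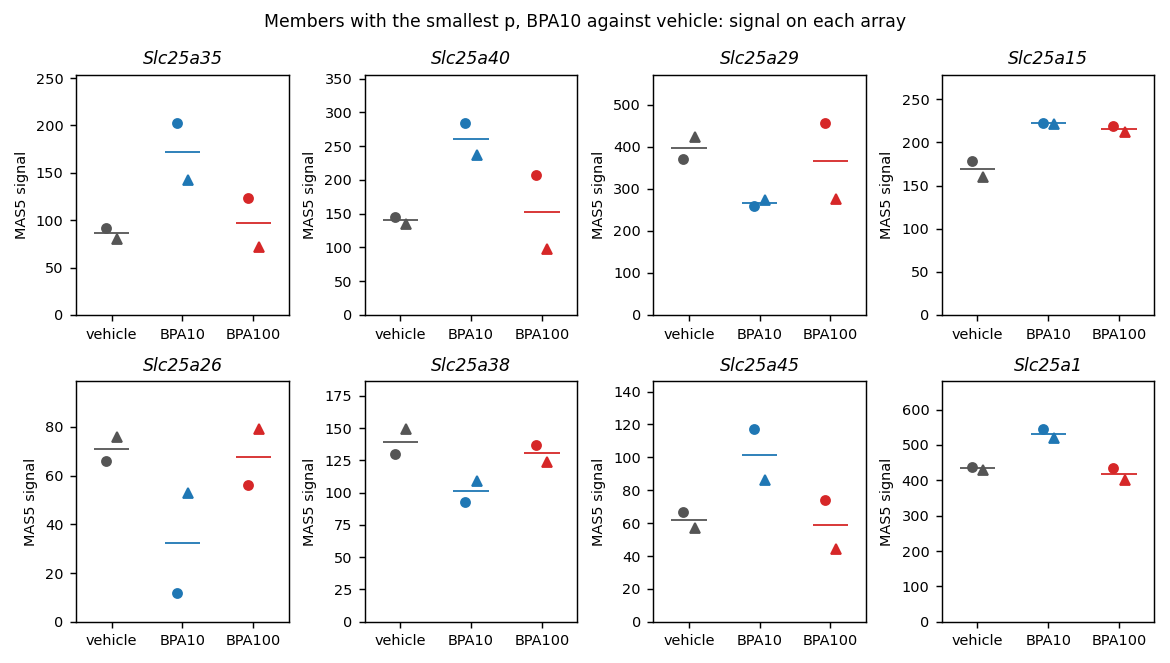
MAS5 signal on each array (circles replicate 1, triangles replicate 2, lines the group means) for the 8 carriers with the smallest unadjusted p in BPA10 against vehicle, each panel with its own axis from 0. Both BPA10 points lie above both vehicle points for Slc25a35, Slc25a40, Slc25a15, Slc25a45 and Slc25a1, and below them for Slc25a29, Slc25a26 and Slc25a38.

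Among the amino acid carriers, 3 of the 8 tested were higher at BPA10 and 5 lower (median -0.09). Slc25a29, which carries arginine, lysine and other basic amino acids, measured 372 and 423 on the vehicle arrays, 259 and 273 on the BPA10 arrays and 458 and 277 on the BPA100 arrays (NCBI gene 214663). The BPA10 pair was the lowest, and the BPA100 arrays held the highest and a low value. The difference was -0.58 ± 0.23, or 0.67-fold (limma, adjusted p = 0.686). All 5 of its tested probe sets gave a negative BPA10 difference, from -1.66 to -0.33, whereas at BPA100 they ranged from -0.53 to 0.29. These probe sets share a transcript and arrays and are not independent. With the acinar covariate the BPA10 difference was -0.85.

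Slc25a15, the ornithine carrier of the urea cycle, measured 178 and 160 on the vehicle arrays, 223 and 221 on the BPA10 arrays and 219 and 212 on the BPA100 arrays. Every BPA array was above both vehicle arrays. The differences were 0.39 ± 0.16 at BPA10 (limma, adjusted p = 0.686) and 0.35 ± 0.16 at BPA100 (adjusted p = 1), and its other tested probe set gave 0.65 and 0.45. Both comparisons use the same vehicle arrays. Slc25a38, which imports glycine for heme synthesis, had 130 and 149 on the vehicle arrays, 93 and 109 on the BPA10 arrays and 137 and 124 on the BPA100 arrays, a BPA10 difference of -0.46 ± 0.19 (limma, adjusted p = 0.688).

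The aspartate/glutamate carrier Slc25a13 (citrin), a part of the malate-aspartate shuttle, read 45 and 76 on the vehicle arrays, 78 and 85 on the BPA10 arrays and 58 and 71 on the BPA100 arrays. Its BPA10 difference of 0.47 ± 0.29 (limma, adjusted p = 0.796) was 0.10 without vehicle replicate 1 and 0.84 without vehicle replicate 2, and 1.08 with the acinar covariate. Its paralog Slc25a12 (aralar) had 773 and 917, 686 and 790, and 768 and 961 on the vehicle, BPA10 and BPA100 arrays, differences of -0.19 at BPA10 and 0.03 at BPA100. Its other tested probe sets gave -0.19 and -0.71 at BPA10 and -0.21 and -0.89 at BPA100. The dimmer of them read 69 and 79, 57 and 35, and 40 and 39 in the same order of groups. The remaining tested amino acid carriers were the glutamate carriers Slc25a18 and Slc25a22 and the branched-chain amino acid carrier Slc25a44. Slc25a22 read 249 and 169, 247 and 246, and 260 and 208 in the same order of groups, with all groups overlapping.

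Of 8 tested carriers of coenzyme A, NAD, nucleotides and other cofactors, 4 were higher and 4 lower at BPA10 (median -0.02). Slc25a26, the S-adenosylmethionine carrier that supplies mitochondrial methylation, had 66 and 76 on the vehicle arrays, 12 and 53 on the BPA10 arrays and 56 and 79 on the BPA100 arrays. The low mean rested on BPA10 replicate 1. The difference was -1.44 ± 0.57 (limma, adjusted p = 0.686), but -0.41 without that array, -2.47 without BPA10 replicate 2, -0.80 with the acinar covariate and -0.19 in the gene's other tested probe set. For the other carriers of the group, Slc25a16, Slc25a17, Slc25a32, Slc25a33, Slc25a36, Slc25a42 and Slc25a51, the BPA10 differences of the brightest probe sets lay between -0.14 and 0.19. Slc25a36 had other tested probe sets on both sides, at 0.42 and -0.24.

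The carriers of the main energy route differed little. Slc25a4 and Slc25a5, the ADP/ATP carriers, read 2837 and 2904, 2959 and 2905, and 3070 and 3044 (Slc25a4) and 3893 and 3380, 3575 and 3790, and 3956 and 3211 (Slc25a5) on the vehicle, BPA10 and BPA100 arrays. Their BPA10 differences were 0.03 ± 0.11 and 0.02 ± 0.14. Slc25a3, which imports the phosphate for ATP synthesis and also copper, read 5023 and 5062, 5427 and 5524, and 5643 and 4883 in that order, a BPA10 difference of 0.12 ± 0.12. Slc25a5 has 8 tested probe sets, with BPA10 differences from -0.22 to 0.10, and near-identical copies may share their signal. The sign of these 3 small differences was not kept under every scaling, since after quantile normalization they were -0.06 for Slc25a4, -0.11 for Slc25a5 and -0.07 for Slc25a3.

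Among the di- and tricarboxylate carriers, Slc25a1 (the citrate carrier that feeds cytosolic acetyl-CoA) measured 439 and 430 on the vehicle arrays, 544 and 520 on the BPA10 arrays and 434 and 401 on the BPA100 arrays. The BPA10 arrays were the 2 highest, by 0.29 ± 0.13 against vehicle (limma, adjusted p = 0.707). The oxoglutarate carrier Slc25a11 was lowest on the BPA10 arrays, with 590 and 638, 481 and 522, and 574 and 535 on the vehicle, BPA10 and BPA100 arrays. The dicarboxylate carrier Slc25a10 varied within BPA10 from 74 to 130 around vehicle values of 93 and 100, and read 94 and 82 on the BPA100 arrays. Slc25a20, the carnitine/acylcarnitine carrier, read 617 and 462, 475 and 599, and 390 and 593 in the same order of groups. The groups overlapped, with a BPA10 difference of 0.00 ± 0.23.

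The calcium-regulated ATP-Mg/phosphate carriers Slc25a23 and Slc25a24 were higher on both BPA10 arrays (144 and 108, and 345 and 308) than on both vehicle arrays (100 and 106, and 277 and 255), and Slc25a25 was not (86 and 92 against 90 and 96). On the BPA100 arrays Slc25a23 read 124 and 111, Slc25a24 223 and 272, and Slc25a25 101 and 77. Of the 4 iron and glutathione carriers, 3 had a higher BPA10 mean (median 0.35). The mitoferrin Slc25a37, which brings iron to mitochondria of red cell precursors, measured 142 and 97 on the vehicle arrays, 214 and 116 on the BPA10 arrays and 107 and 117 on the BPA100 arrays. Its high value was on BPA10 replicate 1, where the red cell genes Slc4a1 (band 3) and Alas2 (heme synthesis) had signals of 166 and 89, against 14 to 27 and 3 to 17 on the other 5 arrays. The 2 other red cell genes found were not high there, with signals of 5 for Hba-a1 (3 to 13 on the other arrays) and 2 for Epb42 (2 to 11). The red cell list was looked at gene by gene after its values were seen, and its part in the carrier value was not tested. Slc25a28, the widely expressed mitoferrin, read 311 and 279, 238 and 293, and 271 and 287 on the vehicle, BPA10 and BPA100 arrays.

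All 5 tested carriers of the outer membrane and less characterised group had a higher mean at BPA10 (median 0.30), and all 3 uncoupling-protein-like carriers did (median 0.10). The first group holds Slc25a35 and Slc25a45 with Slc25a46 (an outer membrane protein of mitochondrial shape), Slc25a47 and Slc25a53. Slc25a47 overlapped between the groups, with 57 and 34 in BPA10 islets, against 57 and 25 in vehicle islets. Slc25a53 did too, with 554 and 412 against 440 and 343, and its other tested probe set had the opposite sign (-0.26). On the BPA100 arrays Slc25a47 read 48 and 38 and Slc25a53 547 and 385.

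In BPA100 against vehicle, 21 carriers had a higher mean and 17 a lower one, with a median difference of 0.03 (-0.0047 over all tested probe sets). Unadjusted p was under 0.05 for 1 member (2.63%), beside 3.98% of all tested probe sets (2.11% higher, 1.87% lower), and the groups did not overlap for 11 (7 higher, 4 lower), or 28.9%, beside 31.9%. Both shares were below those over all probe sets. The count of 1 was 0 with the acinar covariate, while over all tested probe sets the count was then 1334, against 1075 without the covariate. The median was 0.06 without vehicle replicate 1, -0.03 without vehicle replicate 2, 0.0008 without BPA100 replicate 1, 0.10 without BPA100 replicate 2 and -0.07 with the acinar covariate.

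That member was Slc25a14, an uncoupling-protein-like carrier of the brain and other tissues. It read 197 and 252 on the vehicle arrays, 263 and 198 on the BPA10 arrays and 333 and 296 on the BPA100 arrays (NCBI gene 20523). Both BPA100 arrays were above the 4 others, while the vehicle and BPA10 arrays covered the same range. The BPA100 difference was 0.49 ± 0.20, or 1.41-fold (limma, adjusted p = 1). It was 0.32 without vehicle replicate 1 and 0.52 with the acinar covariate. The related Slc25a27 and Slc25a30 overlapped between groups, with 53 and 43, 55 and 48, and 39 and 63 for Slc25a27 and 133 and 115, 164 and 128, and 125 and 129 for Slc25a30 on the vehicle, BPA10 and BPA100 arrays.

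**Figure D3:**
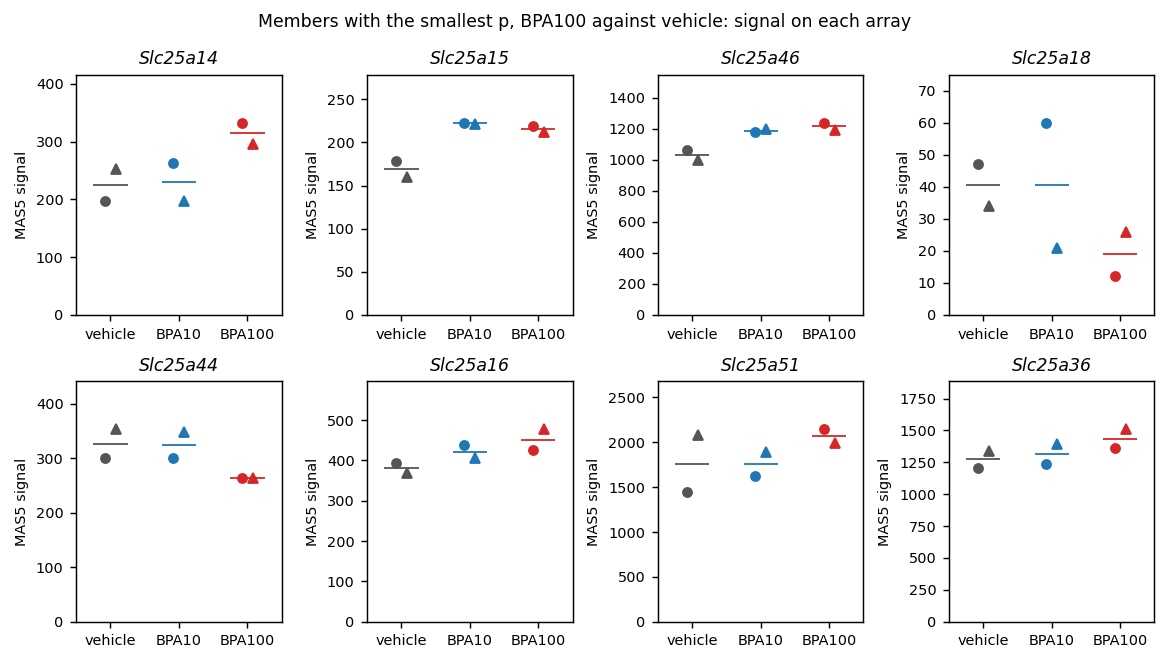
MAS5 signal on each array (circles replicate 1, triangles replicate 2, lines the group means) for the 8 carriers with the smallest unadjusted p in BPA100 against vehicle, each panel with its own axis from 0. Slc25a15 and Slc25a46 lie above vehicle at both doses, Slc25a14 at BPA100, and Slc25a18 and Slc25a44 lie lower at BPA100.

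Slc25a46 measured 1063 and 997 on the vehicle arrays, 1180 and 1197 on the BPA10 arrays and 1240 and 1193 on the BPA100 arrays. All 4 BPA arrays were above both vehicle arrays, with a BPA100 difference of 0.24 ± 0.12 (limma, adjusted p = 1). The second probe set of Slc25a46 gave 0.10 at BPA100 and -0.04 at BPA10. Slc25a16, linked to coenzyme A handling, likewise lay above vehicle on every BPA array, with 394 and 369 on the vehicle arrays, 438 and 406 on the BPA10 arrays and 425 and 477 on the BPA100 arrays. Its BPA100 difference was 0.24 ± 0.14 (limma, adjusted p = 1), and 0.16 without BPA100 replicate 2.

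The glutamate carrier Slc25a18 had the most negative BPA100 difference of the tested members, with signals of 47 and 34 on the vehicle arrays, 60 and 21 on the BPA10 arrays and 12 and 26 on the BPA100 arrays. Both BPA100 arrays were below both vehicle arrays, and the BPA10 arrays overlapped both groups. Its difference of -1.13 ± 0.56 (limma, adjusted p = 1) was -0.60 without BPA100 replicate 1. Slc25a44, which carries branched-chain amino acids, read 300 and 353, 301 and 348, and 263 and 264 on the vehicle, BPA10 and BPA100 arrays, a BPA100 difference of -0.30 ± 0.16 (limma, adjusted p = 1) that was -0.19 without vehicle replicate 2. Its other tested probe sets gave -0.04 and 0.18.

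Slc25a51, the mitochondrial NAD carrier, had 1442 and 2083 on the vehicle arrays, 1627 and 1893 on the BPA10 arrays and 2144 and 1996 on the BPA100 arrays. The vehicle arrays spanned nearly the whole range. Its BPA100 difference of 0.26 ± 0.18 (limma, adjusted p = 1) was -0.01 without vehicle replicate 1 and 0.52 without vehicle replicate 2, and 0.39 with the acinar covariate, and its 2 other tested probe sets gave -0.30 and -0.16. Slc25a36, a pyrimidine nucleotide carrier, had 1207 and 1341, 1234 and 1393, and 1363 and 1508 on the vehicle, BPA10 and BPA100 arrays. That is a BPA100 difference of 0.17 ± 0.13 (limma, adjusted p = 1), with all 3 tested probe sets positive (0.15 to 0.47). It was 0.10 without vehicle replicate 1 and also without BPA100 replicate 2, and 0.27 with the acinar covariate.

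The carriers of the main energy route lay close to vehicle at BPA100 as well. The differences were 0.06 ± 0.12 for Slc25a3, 0.09 ± 0.11 for Slc25a4, -0.03 ± 0.14 for Slc25a5, -0.06 ± 0.13 for Slc25a1, 0.13 ± 0.29 for Slc25a13 and -0.15 ± 0.23 for Slc25a20. Of these 6, Slc25a4 was the only one with both BPA100 arrays (3070 and 3044) on the same side of both vehicle arrays (2837 and 2904). That held for its brightest probe set only. The other tested probe sets of Slc25a4 overlapped vehicle, with differences of -0.06 and 0.004 at BPA100 and -0.11 and -0.07 at BPA10. For 4 of the 6 the sign was not kept over the alternatives, with ranges of -0.05 to 0.16 for Slc25a3, -0.18 to 0.13 for Slc25a5, -0.24 to 0.50 for Slc25a13 and -0.45 to 0.15 for Slc25a20. With the acinar covariate, Slc25a13 was at 0.43, Slc25a5 at -0.16 and Slc25a1 at -0.10. The other tested members, the folate carrier Slc25a32, the pyrimidine nucleotide carrier Slc25a33, the coenzyme A carrier Slc25a42 and Slc25a17, which serves peroxisomes, read 105 to 146, 77 to 98, 56 to 98 and 269 to 336 over the 6 arrays.

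In BPA100 against BPA10, 14 carriers were higher and 24 lower at BPA100, with a median of -0.05 (0.0026 over all tested probe sets). Unadjusted p was under 0.05 for 7 (18.4%), beside 4.75% of all tested probe sets (2.44% higher, 2.31% lower) and 4.31% of the brightest probe sets of all genes. Slc25a35, Slc25a40, Slc25a45, Slc25a1 and Slc25a24 were lower and Slc25a14 and Slc25a26 higher. For Slc25a26 the difference was 1.35 in the brightest probe set and -0.04 in its other tested one. The groups did not overlap for 16 (7 higher, 9 lower), or 42.1%, beside 30.7%. This comparison shares its BPA10 arrays with BPA10 against vehicle. The count of 7 was 1 with the acinar covariate, while over all tested probe sets the count was then 981, against 1283 without the covariate. The covariate was not the only change that lowered it. With no intensity trend the count was 2, beside 1387 over all tested probe sets. The median was -0.02 without BPA10 replicate 1, 0.02 with the acinar covariate, 0.02 without BPA100 replicate 2 and -0.17 without BPA100 replicate 1.

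From the signals already given, Slc25a35 differed by -0.84 ± 0.29, Slc25a40 by -0.87 ± 0.32, Slc25a1 by -0.35 ± 0.13 and Slc25a45 by -0.80 ± 0.30, each with adjusted p = 0.964 in limma. Without BPA100 replicate 2, whose acinar signal was the lower of that pair, Slc25a35, Slc25a40 and Slc25a45 differed by -0.46, -0.33 and -0.43, and without BPA100 replicate 1 by -1.23, -1.41 and -1.17. With the acinar covariate they differed by -0.54, -0.52 and -0.50, and Slc25a1 by -0.30. In the F test over the 3 groups, 2 of the 38 tested members had an unadjusted p under 0.05, Slc25a35 and Slc25a40. Over all tested probe sets it was 1412 of 27022 (5.23%), so the share of the family was close to that of all.

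Where a gene had several tested probe sets, they often went different ways. For 19 member genes there were 37 further tested probe sets, of which 21 had the sign of the brightest one at BPA10 and 23 at BPA100. In each comparison with vehicle, 9 of the 19 genes had all probe sets on one side of 0. Slc25a15 and Slc25a39 were among these at both doses. Within groups, the median gap between replicate arrays over members was 0.19 for vehicle, 0.21 for BPA10 and 0.20 for BPA100 on the log2 scale. The median absolute difference from vehicle was 0.20 at BPA10 and 0.13 at BPA100. Over all tested probe sets the gaps were 0.22, 0.25 and 0.23 and the differences 0.18 and 0.16. A gap between single arrays and a difference between means of 2 arrays are not on one footing and are not compared.

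**Figure D4:**
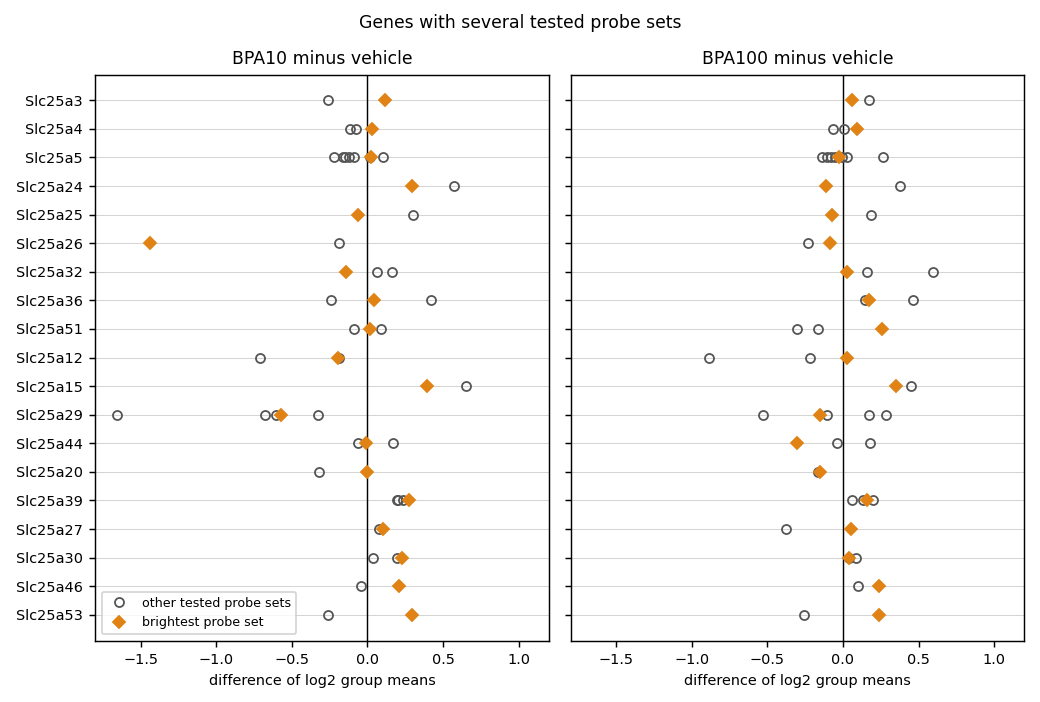
Difference of log2(signal + 1) group means from vehicle for the brightest probe set (diamonds) and the other tested probe sets (circles) of the 19 carriers with several, at BPA10 on the left and BPA100 on the right. All 5 Slc25a29 probe sets lie below 0 at BPA10 and lie on both sides at BPA100.

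Genes that work with the carriers were summarised in 4 lists. Among 18 tested other transport proteins of the mitochondrial membranes, 11 were higher and 7 lower at BPA10 (median 0.01), and 6 higher and 12 lower at BPA100 (median -0.04), none with an unadjusted p under 0.05. The sideroflexin Sfxn4 read 82 and 72 on the vehicle arrays, 50 and 48 on the BPA10 arrays and 42 and 65 on the BPA100 arrays, and Sfxn5 42 and 59, 81 and 65, and 38 and 36. Sfxn4 was lower than vehicle on all 4 BPA arrays, by -0.64 ± 0.28 at BPA10 (limma, adjusted p = 0.704), while Sfxn5 was high on the BPA10 arrays and low on the BPA100 arrays.

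Of 19 shuttle and anaplerosis enzymes, which use the carried metabolites, 7 were higher and 12 lower at BPA10 (median -0.03), and 8 higher and 11 lower at BPA100 (median -0.03), none with an unadjusted p under 0.05. The mitochondrial malate dehydrogenase Mdh2 had 2483 and 2880 in BPA10 islets, against 3008 and 3782 in vehicle islets, a difference of -0.33 ± 0.16 (limma, adjusted p = 0.729). Glutamate dehydrogenase (Glud1) had 1067 and 1454 against 1458 and 1565. At BPA100, carnitine acetyltransferase (Crat) had 69 and 127 against 131 and 126 on the vehicle arrays, and the cytosolic malate dehydrogenase Mdh1 had 5044 and 4437 against 4125 and 4312.

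Of 14 genes of the carrier import machinery, 7 were higher and 7 lower at BPA10 (median 0.02), and 6 higher and 8 lower at BPA100 (median -0.04). One had an unadjusted p under 0.05, at BPA100. This was Timm10b, a small chaperone subunit that hands carriers to the inner membrane, with 962 and 932 in BPA100 islets, against 1105 and 1274 in vehicle islets (-0.33 ± 0.13, limma, adjusted p = 1). The BPA10 arrays had 992 and 997, so all 4 BPA arrays were below vehicle. Timm8b, of the same chaperone family, had 404 and 471 in BPA10 islets, against 496 and 547 in vehicle islets. Tomm70a, the outer membrane receptor for carrier precursors, was above vehicle on all 4 BPA arrays, with 555 and 586, 644 and 695, and 652 and 744 on the vehicle, BPA10 and BPA100 arrays (0.29 ± 0.13 at BPA100, limma, adjusted p = 1).

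Mitochondrial content and biogenesis genes had medians of 0.0038 at BPA10 and 0.0012 at BPA100 over 21 tested genes, with 11 higher and 10 lower at each dose and none with an unadjusted p under 0.05. The 2 with the smallest p at BPA10 were the mitochondrial chaperone Hspa9, with 1506 and 1416 in BPA10 islets, against 1282 and 1056 in vehicle islets, and the nuclear receptor Esrra, with 96 and 96 against 119 and 117. At BPA100 they were the transcription factor subunit Gabpa, with 614 and 636 in BPA100 islets, against 512 and 516 in vehicle islets, and Sdhb of respiratory complex II, with 1061 and 932 against 1116 and 1185.

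**Figure D5:**
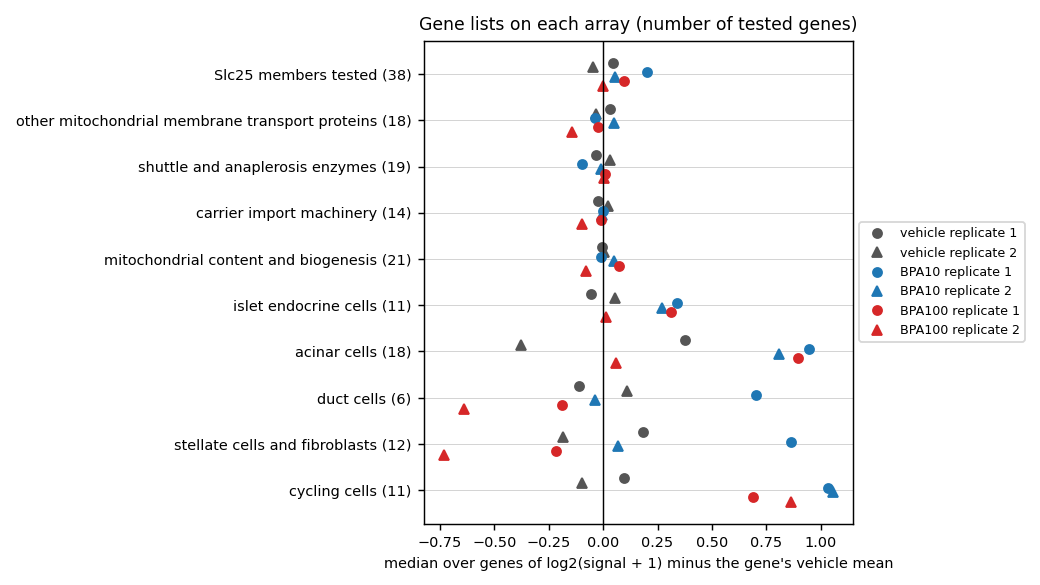
Median over the genes of each list of log2(signal + 1) minus the gene's vehicle mean, for each of the 6 arrays (numbers of tested genes in parentheses). The Slc25 members and the 4 mitochondrial lists lie within 0.20 of 0 on every array, while the acinar list reaches 0.95 on BPA10 replicate 1 and the cycling list 1.06 on BPA10 replicate 2.

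Several cell type lists had medians farther from 0 than the carriers did. At BPA10 the median difference was 0.88 for the 18 acinar markers (all higher), 0.95 for 11 cycling-cell genes (all higher), 0.43 for 12 stellate and fibroblast markers (9 higher) and 0.30 for 11 islet endocrine genes (10 higher). Unadjusted p was under 0.05 for 15 acinar, 10 cycling, 4 stellate and fibroblast, 5 islet endocrine and 3 immediate-early genes and for none of the other lists, beside 7.08% of all tested probe sets. The median was 0.31 for 6 duct markers, 0.29 for 3 Schwann cell markers, 0.21 for 2 adipocyte markers, -0.02 for 8 endothelial markers, -0.04 for 10 macrophage markers and -0.58 for 9 immediate-early genes. The 1 tested red cell gene, Slc4a1, differed by 1.48.

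At BPA100 the median was 0.49 for acinar, 0.78 for cycling, 0.16 for islet endocrine, 0.22 for Schwann, 0.02 for endothelial, -0.08 for adipocyte, -0.32 for duct, -0.43 for stellate and fibroblast, -0.49 for macrophage and -0.996 for immediate-early genes. Slc4a1 differed by -0.37. Unadjusted p was under 0.05 for 2 acinar, 9 cycling, 4 stellate and fibroblast, 4 macrophage, 1 duct and 4 immediate-early genes and for none of the other lists, beside 3.98% of all tested probe sets. Summed acinar signals were 145674 to 159388 at BPA10 and 90048 to 150222 at BPA100, against 65801 to 114649 for vehicle, with no marker at 0. The part of these cell types in the carrier values was not tested. The acinar covariate fit cannot tell acinar level and BPA10 dose apart. Both BPA10 arrays had higher mean acinar log2 levels (1.17 and 0.97, relative to vehicle) than both vehicle arrays (0.47 and -0.47).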

How the data were processed

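RNA of pancreatic islets was hybridized to 6 Affymetrix arrays, 2 a group, as biotin-labelled cRNA made over 2 rounds of cDNA synthesis, as the labels' protocols state. The authors deposited 1 intensity per probe set and array, made with MAS5, as the submitters' processing notes name it, with no version given in the sources used here. All deposited values are whole numbers whose trimmed mean is 150 on every array. A platform annotation gave 1 gene for 34945 of the probe sets, several for 932 and none for 9160.

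Values were taken as log2(signal + 1), which understates changes of dim probe sets. Of 45101 probe sets, 64 controls were left out, and the 27022 at or above the 40th percentile of mean log2 value (4.60) were tested with limma 3.58.1 in R 4.3.3. The fit had 3 group means, an intensity trend, 3 residual and 5.4 prior degrees of freedom, and two-sided p-values with Benjamini-Hochberg adjustment over all tested probe sets. It was tested on simulated data. Array number limits the precision.

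The genes with values in the text were the 8 members with the smallest p in each comparison with vehicle, 4 in BPA100 against BPA10, and Slc25a1, Slc25a3, Slc25a4, Slc25a5, Slc25a13 and Slc25a20, plus 2 genes of each pathway list in each comparison with vehicle; other members are given by signals and ranges. Members and lists were chosen with earlier results of these data known. Alternatives were other scalings, pseudocounts, filters, probe set summaries, an acinar covariate, the replicate number as a block and fewer arrays.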

Additional observations from a re-analysis of the deposited data

How the results depend on the processing

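No member had an adjusted p under 0.05 in any of the 3 comparisons or the F test under any alternative run; the smallest adjusted p over the named carriers was 0.187. Of 494 recomputed differences of named carriers, 465 kept their direction and 29 turned, and 22 of the 31 differences never turned. Many of these could not turn. Changing the filter, dropping the intensity trend or adding the replicate block leaves each difference as it was. So does leaving out an array of the group outside the comparison. Where the groups of a carrier did not overlap, leaving out an array cannot change the sign either. The tally therefore does not measure how firm the directions are. The cause of the changes below was not tested. Same-numbered arrays deviated together only weakly (correlations of 0.19, 0.20 and 0.08), which does not settle whether the numbers pair them. With a replicate block, 9, 1 and 7 members had an unadjusted p under 0.05 in BPA10 against vehicle, BPA100 against vehicle and BPA100 against BPA10 (6, 1 and 7 without it). Over all 27022 tested probe sets the counts were 2710, 1494 and 2004 with the block, and 1914, 1075 and 1283 without it. With the block, 7 probe sets had an adjusted p under 0.05 in BPA100 against vehicle, where the smallest of a member was 0.879 (limma). The block was not alone in this. With the acinar covariate, 2 probe sets had an adjusted p under 0.05 in that comparison, where the smallest of a member was 0.997 (limma).

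After quantile normalization the BPA10 differences of Slc25a3, Slc25a4, Slc25a5 and Slc25a20 were -0.0664, -0.0647, -0.108 and 0.0032, and the BPA100 difference of Slc25a3 was -0.0467. At BPA100, 2 members had an unadjusted p under 0.05, beside 1179 of all 27022 tested probe sets. With median centring the BPA10 difference of Slc25a5 was -0.0047. With no filter the BPA100 count was 2, beside 1838 of 45037 probe sets, and with a filter at the 60th percentile 2, beside 805 of 18015. With no intensity trend it was 0, beside 1131 of 27022, and for BPA100 against BPA10 2, beside 1387. When all probe sets of a gene were averaged, dim untested ones included, Slc25a3, Slc25a4 and Slc25a5 were at -0.0702, -0.3885 and -0.075 at BPA10, and Slc25a51 at -0.0703 at BPA100. The count at BPA10 was then 9, beside 724 of 12119 genes. With the acinar covariate the counts were 2, 0 and 1, beside 973, 1334 and 981 of all 27022 tested probe sets. The BPA100 median was -0.0721, and Slc25a5 and Slc25a20 at BPA10 were -0.2532 and 0.126. With only arrays of 1 mouse the BPA10 median was 0.1717, Slc25a20 at BPA10 was 0.0399, and Slc25a51, Slc25a5, Slc25a13 and Slc25a20 at BPA100 were -0.0099, 0.0765, -0.2405 and 0.0578. Here a lone array is assumed to vary like the other groups.

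Leaving out 1 array at a time, the medians ranged from 0.0562 to 0.1999 at BPA10 and from -0.1658 to 0.0228 for BPA100 against BPA10. At BPA10, Slc25a5 ranged from -0.0808 to 0.123 and Slc25a20 from -0.2096 to 0.2069. At BPA100, Slc25a51 ranged from -0.0099 to 0.5203, Slc25a3 from -0.0464 to 0.1623, Slc25a5 from -0.1759 to 0.1251, Slc25a13 from -0.2405 to 0.5027 and Slc25a20 from -0.4521 to 0.1512. Dim probe sets such as Slc25a18 and Slc25a26 have the widest errors, and their log2 differences are the least precise.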
